A study of Mus musculus with 2 samples.

Results

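The 10 imprinted genes considered here control growth of the embryo, and were looked up by symbol among the 27998 genes of the deposited count tables. Of these 10, Dlk1, Meg3, H19, Igf2, Igf2r, Peg3, Mest, Plagl1 and Grb10 were found and are described, and Rian was not analysed here, which leaves 9. They were measured by droplet single-cell RNA sequencing (10x Genomics), in which each captured RNA molecule carries a unique molecular identifier (UMI) and each cell a barcode. The cells came from somites dissected between the limb buds of wild type C57BL/6 mouse embryos at embryonic day (E) 9.5 and E11.5, with 3 embryos pooled per age into 1 library. No gene was altered and no treatment was given at either age. Because each age is 1 library of pooled embryos, age and library cannot be told apart, no test across replicates was possible, and every interval below covers counting error only.

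An imprinted gene is transcribed mainly from the copy inherited from 1 parent, according to DNA methylation laid down in the egg or the sperm. Paternally expressed members generally promote growth: Igf2 encodes insulin-like growth factor 2, Dlk1 a membrane ligand related to the Notch ligands, Peg3 and Plagl1 zinc-finger proteins that act in the nucleus, and Mest a protein of the alpha/beta hydrolase fold. The maternally expressed members include Igf2r, whose receptor carries Igf2 to the lysosome, Grb10, an adaptor that dampens signalling by the insulin and Igf1 receptors, and the long noncoding RNAs H19 and Meg3. Grb10 is known as an exception in neurons, where the paternal copy is used. Dlk1 with Meg3, and Igf2 with H19, are the classic pairs in which neighbouring genes on a chromosome are read from opposite parental copies. The embryos were of 1 inbred strain, so the parental copies were not separated here and every level is the sum of both.

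In the GRCm38 assembly, the build also called mm10, Dlk1 (ENSMUSG00000040856) lies on the forward strand at chr12:109452823-109463336 and Meg3 (ENSMUSG00000021268) follows on the same strand at chr12:109541001-109571726. Their gene bodies are 77.7 kb apart. H19 (ENSMUSG00000000031, chr7:142575529-142578143) and Igf2 (ENSMUSG00000048583, chr7:142650766-142666816) lie 72.6 kb apart, both on the reverse strand. Peg3 is at the other end of that chromosome at chr7:6703892-6730431, and the remaining members stand alone: Mest at chr6:30723547-30748465, Plagl1 at chr10:13060504-13131694, Grb10 at chr11:11930508-12038683 and Igf2r at chr17:12682406-12769664. H19 and Meg3 code for no protein, but 4 members hold microRNA genes on their own strand, and the 8 mature microRNAs, taken from RefSeq with the seed (bases 2 to 8) in capitals, are shown because the host RNAs include them. Those of H19 and Meg3 lie in an exon of the host, and those of Mest and Igf2 in an intron.
mmu-miR-675-5p: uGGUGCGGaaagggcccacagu
mmu-miR-675-3p: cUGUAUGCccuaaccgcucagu
mmu-miR-770-5p: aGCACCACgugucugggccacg
mmu-miR-770-3p: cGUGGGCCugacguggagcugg
mmu-miR-335-5p: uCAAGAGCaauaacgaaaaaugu
mmu-miR-335-3p: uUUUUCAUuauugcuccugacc
mmu-miR-483-5p: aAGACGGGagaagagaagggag
mmu-miR-483-3p: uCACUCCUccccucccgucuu
The miR-675 arms come from H19, the miR-770 arms from Meg3, the miR-335 arms from Mest and the miR-483 arms from Igf2. All 8 seeds differ, so no 2 of these arms share one. The libraries captured polyadenylated RNA, so mature microRNAs were not measured and the levels below are those of the host transcripts.

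Dlk1 and Meg3 reached their highest levels in the same class of cells, and the start regions of both are shown for comparison, from 250 bases before to 50 bases after the RefSeq start (GRCm38.p6, forward strand). Capitals mark TGACGTCA, the cyclic AMP response element, and TATAAA, the TATA box.
Dlk1, chr12:109452573-109452872: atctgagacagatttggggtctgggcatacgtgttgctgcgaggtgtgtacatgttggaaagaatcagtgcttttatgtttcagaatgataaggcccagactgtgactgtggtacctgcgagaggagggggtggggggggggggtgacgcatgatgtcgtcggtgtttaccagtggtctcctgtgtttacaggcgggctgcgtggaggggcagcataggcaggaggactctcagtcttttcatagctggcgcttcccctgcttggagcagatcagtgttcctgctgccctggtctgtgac
Meg3, chr12:109540746-109541045: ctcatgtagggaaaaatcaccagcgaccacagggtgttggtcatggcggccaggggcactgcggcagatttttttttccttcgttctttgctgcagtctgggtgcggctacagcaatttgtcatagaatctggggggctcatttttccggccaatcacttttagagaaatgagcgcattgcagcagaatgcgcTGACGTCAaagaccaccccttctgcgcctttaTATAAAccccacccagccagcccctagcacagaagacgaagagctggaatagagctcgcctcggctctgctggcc
The Meg3 window held TGACGTCA beginning 57 bases before the start and TATAAA beginning 25 bases before it, and the Dlk1 window held neither on either strand. Over 32851 mouse promoter windows of the same length, 1.79% held TGACGTCA and 13.6% held TATAAA on either strand. CANNTG, the core bound by the Myod1 family, was in neither window, although 72.3% of windows held it. The Meg3 window had 13 CpG dinucleotides and the Dlk1 window 9, against a median of 7 over all windows. A match of letters is a description of the window and not evidence of binding.

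After filtering (200 genes or more but under 6500 in a cell, and under 15% mitochondrial UMIs), 9851 of 10121 barcodes were kept at E9.5 and 9595 of 10167 at E11.5, with medians of 12462 and 12479 UMIs per cell. The libraries shared 30 barcodes, 25 of them among the kept cells. Cells were put into classes by marker genes that include no imprinted member, and a class was described where it had 50 cells or more, which gave 8 classes with 5171 cells at E9.5 and 11 classes with 3802 cells at E11.5. Muscle cells were ordered by step: newly formed somite cells (Tbx6, Ripply2 and similar genes, 65 cells at E9.5), Pax3/Pax7 progenitors (655 and 151 cells at E9.5 and E11.5), Myf5 cells (370 and 345), and, at E11.5 only, Myod1 myoblasts (187), Myog myocytes (364) and Myh3 myocytes (222). The other classes were sclerotome cells (1313 and 1628), endothelial cells (306 and 83), neural progenitors (2090 and 190), neurons (260 and 421), red blood cells (112 and 124) and, at E11.5, white blood cells (87). A further 518 and 196 cells passed the gates of more than 1 tissue and were left out, and 4136 and 5597 passed none.

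Marker genes kept out of the gates were used to check the names. The summed markers were highest in their own class, other than for the following. At E9.5 the neural progenitor markers (Fabp7, Msi1, Nes, Ncam1) were at 338 UMIs per 1000000 UMIs (UPM) in neural progenitors and 375 UPM in neurons, and the neuron markers (Gap43, Mapt, Nefl, Map1b) were at 799.7 UPM in neurons against 5054 UPM in neurons at E11.5, so the neural classes at E9.5 were less clearly marked than those at E11.5. At E11.5 the muscle progenitor markers were highest in Myog myocytes. The level of each member was its UMIs summed over a class per 1000000 UMIs of the class, with an exact 95% Poisson interval. A difference was called past 2-fold where the log2 ratio of levels was at least 1 in size, its exact interval left out 0, and both classes together held at least 50 UMIs.

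The 9 members were not expressed uniformly. Plagl1 had the widest range, 679-fold between its lowest and highest class, followed by Meg3 (144-fold), Igf2r (103-fold) and Dlk1 (76.4-fold), while Grb10 had the narrowest (14.2-fold). The lowest Plagl1 level rested on 1 UMI in red blood cells at E9.5 (0.60 UPM, 0.02 to 3.32). That of Igf2r rested on 3 UMIs in red blood cells at E11.5 (1.36 UPM, 0.28 to 3.96). The ranges of these members, and their places in the order, are therefore uncertain. Blood held the lowest level of 8 members, the exception being H19. Myh3 myocytes held the highest level of Dlk1, Meg3, H19, Igf2 and Igf2r, endothelial cells that of Mest, Myod1 myoblasts that of Plagl1, Myf5 cells at E11.5 that of Peg3, and Pax3/Pax7 progenitors at E11.5 that of Grb10. For Plagl1 the Myod1 myoblasts (404 UPM) and Myog myocytes (384 UPM) were within counting error of each other, as were the endothelial cells of both ages for Mest (2728 and 2671 UPM). The same held for Peg3 in Myf5 cells (1219 UPM) and sclerotome cells (1202 UPM) at E11.5. It also held for Grb10 in Pax3/Pax7 progenitors (523 UPM) and Myh3 myocytes (499 UPM) at E11.5.

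**Figure D1:**
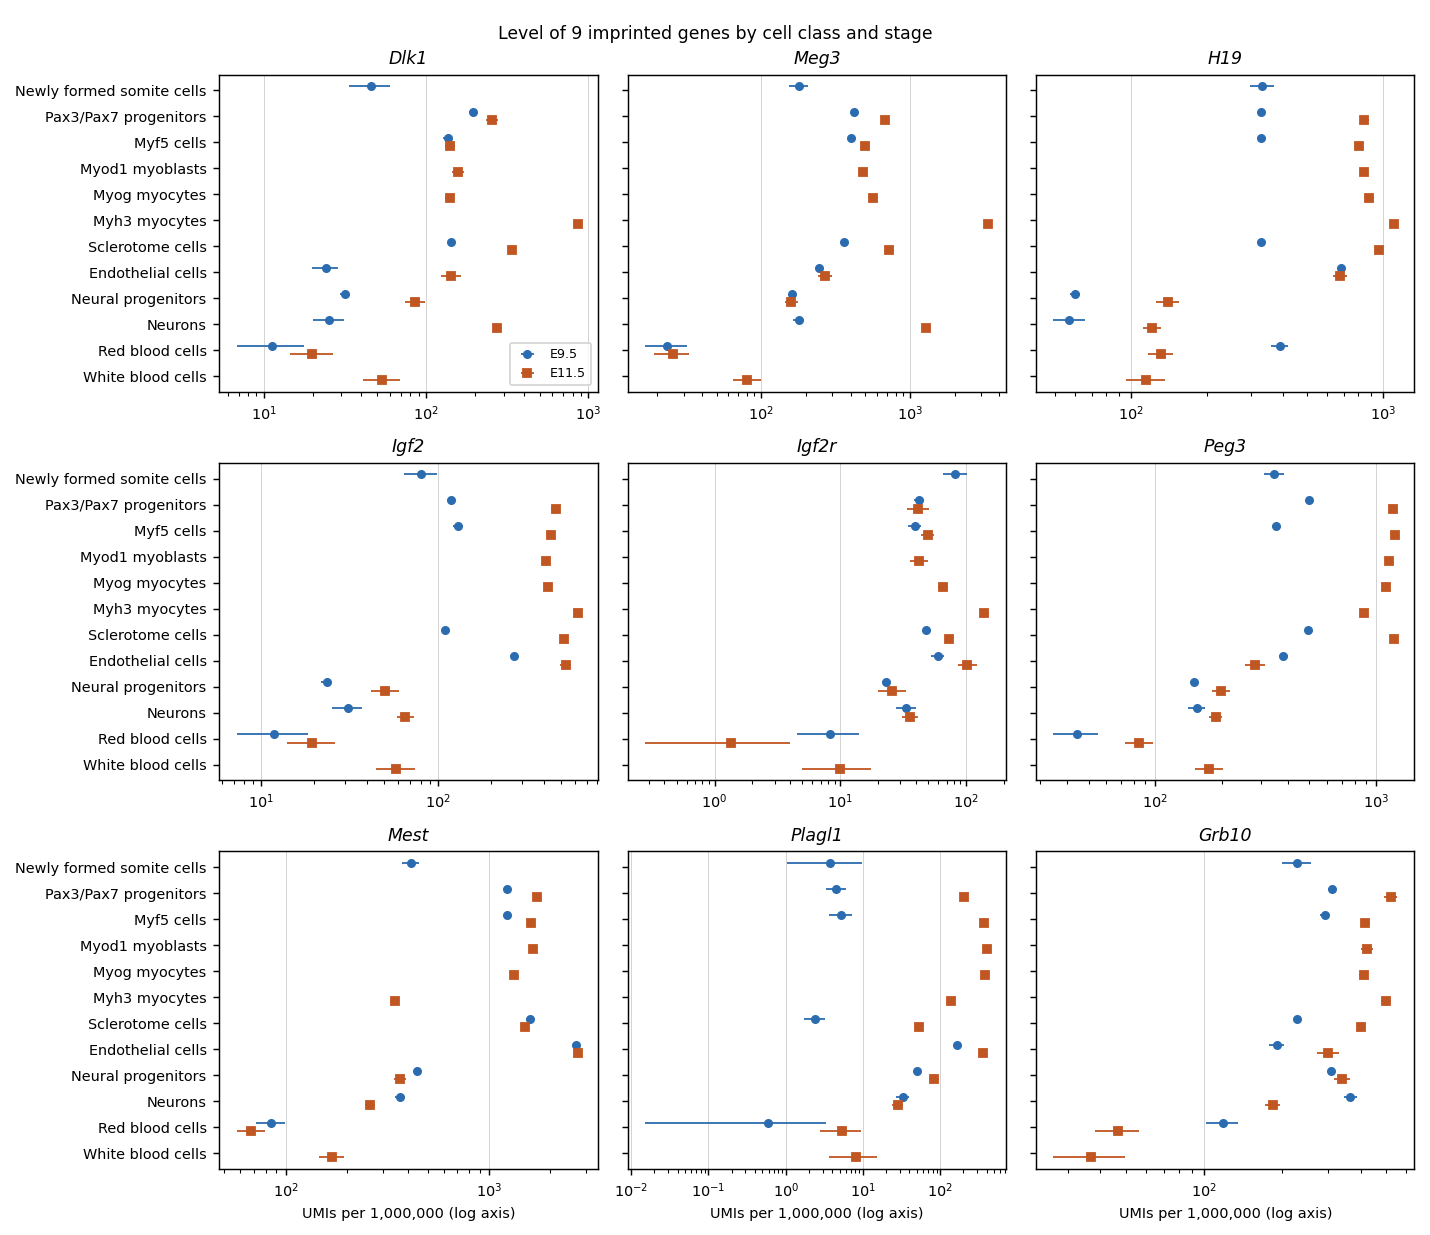
Level of each member (UMIs per 1000000, log axis) by cell class, with E9.5 as circles and E11.5 as squares and exact 95% Poisson intervals as lines. Dlk1 and Meg3 are highest in Myh3 myocytes (864 and 3338 UPM), and Mest is highest in endothelial cells at both ages.

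Between E9.5 and E11.5 Plagl1, Igf2, H19 and Peg3 were each higher past 2-fold at E11.5 in muscle progenitors and in sclerotome. In Pax3/Pax7 progenitors 4 of 9 members were higher past 2-fold and 0 lower, where 10.8% of the 9619 genes tested were higher and 5.62% lower. In Myf5 cells the same count was 4 of 9 (9.91% of genes higher, 4.37% lower), and in sclerotome cells it was 5 of 9 (16.4% higher, 3.94% lower), with Dlk1 added. The median log2 ratio over the members was 0.75 in Pax3/Pax7 progenitors, 0.51 in Myf5 cells and 1.25 in sclerotome cells, against 0.08, 0.03 and 0.20 over all genes tested. No member was lower past 2-fold in these 3 classes.

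Plagl1 was close to absent from somite cells at E9.5. Its level was 4.53 UPM (3.35 to 5.99) in Pax3/Pax7 progenitors, 5.23 UPM (3.66 to 7.24) in Myf5 cells and 2.41 UPM (1.74 to 3.24) in sclerotome cells at E9.5, and 204, 367 and 53.2 UPM at E11.5. The log2 ratios were 5.49 (5.06 to 5.95), 6.13 (5.66 to 6.65) and 4.46 (4.03 to 4.94), the largest of any member in each of these classes. When each cell was thinned to 5000 UMIs and shallower cells were left out, 2.20% of Myf5 cells held a Plagl1 UMI at E9.5 and 73.2% at E11.5. Endothelial cells and neural progenitors already held Plagl1 at E9.5, at 163 and 50.5 UPM. In both, its ratio between ages was smaller, with log2 values of 1.13 (0.96 to 1.29) in endothelial cells and 0.72 (0.50 to 0.94) in neural progenitors. The value in neural progenitors was 1.44 with stricter gates and 1.003 in thinned cells.

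Igf2 stood at 119 UPM in Pax3/Pax7 progenitors, 130.4 UPM in Myf5 cells and 110.3 UPM in sclerotome cells at E9.5, and at 466, 441 and 519 UPM at E11.5. The corresponding log2 ratios were 1.97 (1.85 to 2.09), 1.76 (1.65 to 1.87) and 2.23 (2.16 to 2.30). H19 was at 329, 329.7 and 327 UPM in these classes at E9.5 and at 845, 806 and 968 UPM at E11.5. Its ratios, 1.36, 1.29 and 1.57 on the log2 scale, lay below those of Igf2 in each class, with intervals that did not overlap. Peg3 went from 497, 353 and 491 UPM to 1191, 1219 and 1202 UPM, so the 3 classes were nearer to each other at E11.5 than at E9.5. Mest, in contrast, had log2 ratios of 0.49, 0.39 and -0.09, and was already above 1200 UPM in each class at E9.5.

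The receptor and the signalling brake moved less than the ligand. Igf2r, which clears Igf2, had log2 ratios of -0.04 in Pax3/Pax7 progenitors, 0.35 in Myf5 cells and 0.61 in sclerotome cells. Grb10 had log2 ratios of 0.75, 0.51 and 0.81 in the same order. Dlk1 and Meg3 were not past 2-fold in muscle progenitors: Dlk1 was at 193 and 255 UPM in Pax3/Pax7 progenitors and at 136 and 141 UPM in Myf5 cells, and Meg3 at 420.1 and 676 UPM and at 404 and 499 UPM. In sclerotome cells Dlk1 went from 143 to 339 UPM, a log2 ratio of 1.25 (1.18 to 1.31). The Meg3 ratio there, from 362 to 721 UPM, was 0.99 and crossed 2-fold under other ways of counting, at values up to 1.02.

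Outside the somite lineages the age difference took another form. In endothelial cells 2 of 9 members were higher past 2-fold (5.79% of genes): Dlk1, from 24.0 to 143 UPM with a log2 ratio of 2.58 (2.23 to 2.92), and Plagl1. At E11.5 only 20 of the 83 endothelial cells held a Dlk1 UMI, and 1 cell held 62 of the 192 UMIs. With stricter gates the Dlk1 ratio was 1.61. Igf2 was at 271 and 531 UPM there, a log2 ratio of 0.97 that was 1.13 in thinned cells and 1.22 as a mean over cells, and Peg3, at -0.42, was at -1.03 with stricter gates, while H19 was at 685 and 677 UPM, a log2 ratio of -0.02 (-0.12 to 0.09). Thus in endothelial cells H19 was at E9.5 already near the level it had at E11.5. In neural progenitors 3 of 9 were higher (11.8% of genes), namely Dlk1 (31.5 to 85.9 UPM), H19 (60.1 to 140.0 UPM) and Igf2 (23.5 to 50.3 UPM), and Meg3 was at 161 and 159 UPM. With stricter gates the log2 ratios of Dlk1 and H19 there were 0.77 and 0.96, and without the cells of highest doublet score that of Igf2 was 0.51. Plagl1, at 0.72 there, passed 2-fold with stricter gates, at 1.44.

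Over all kept cells 6 of 9 members were higher past 2-fold at E11.5 (22.4% of genes), and these were Dlk1, Meg3, H19, Igf2, Peg3 and Plagl1. These pooled ratios mix age with the make-up of each library. Neural progenitors, low in most members, were 21.2% of kept cells in the younger library but 1.98% in the older one. Myh3 myocytes numbered 3 and 222. Among the 7 classes described in both libraries, Meg3 was called past 2-fold in neurons only. How much the make-up adds to the pooled ratios was not tested. Measures of RNA quality also differed between the libraries. The younger library had 1.96 to 2.55% mitochondrial UMIs in its classes, the older one 3.51 to 4.52% outside red blood cells. Malat1, a nuclear RNA, ran over 1128 to 2966 UPM in the classes of the first and 2494 to 10301 UPM in those of the second. The part of these differences in the ratios between ages was not tested.

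**Figure D2:**
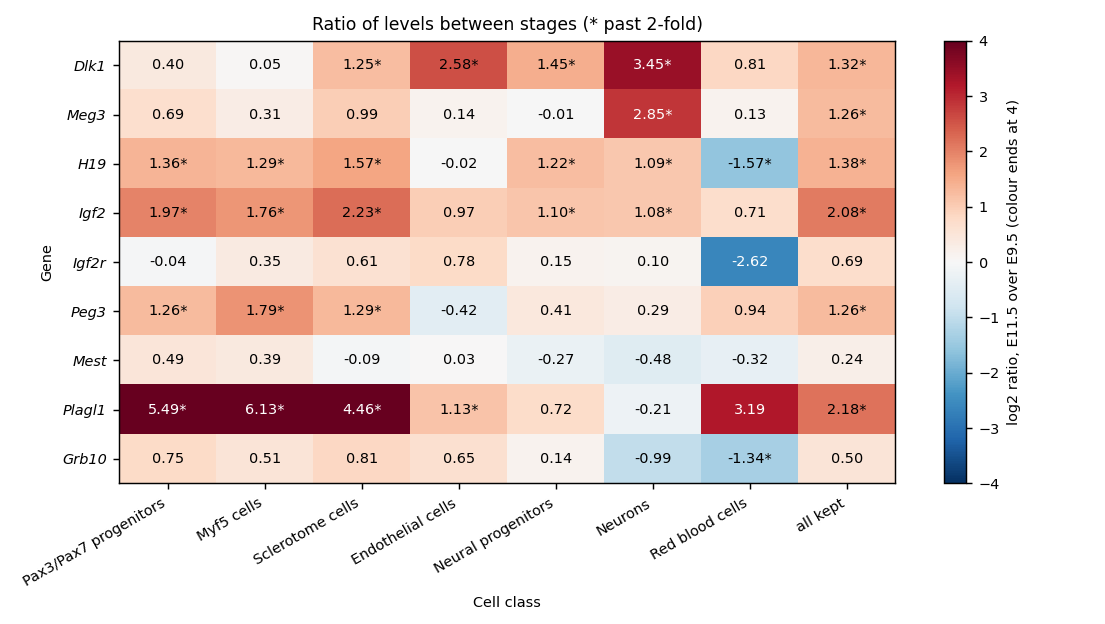
The log2 ratio of the level at E11.5 over that at E9.5 for each member (rows) in each class described at both ages and in all kept cells (columns), with red for higher and blue for lower at E11.5 and an asterisk for past 2-fold. Plagl1 has the largest ratios, 5.49, 6.13 and 4.46 in Pax3/Pax7 progenitors, Myf5 cells and sclerotome cells, and in neurons those of Dlk1 and Meg3 are 3.45 and 2.85.

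Along the muscle steps members passed 2-fold at the start and at the end of the series. From newly formed somite cells to Pax3/Pax7 progenitors at E9.5, 3 of 9 members were higher past 2-fold (3.21% of 9203 genes): Dlk1, from 45.5 UPM (33.6 to 60.4) to 193 UPM (185 to 202), Meg3, from 179 to 420.1 UPM, and Mest, from 413 to 1221 UPM. Their log2 ratios were 2.08, 1.23 and 1.56. H19 was at 332 and 329 UPM and Peg3 at 345 and 497 UPM, so not every growth gene followed. The newly formed somite class held only 65 cells, and its sclerotome markers (515 UPM) were close to those of the sclerotome class (563 UPM).

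In the middle steps 0 members passed 2-fold. This held for Myf5 cells over Pax3/Pax7 progenitors at E9.5 (0.81% of genes past 2-fold in either direction) and at E11.5 (4.2%), for Myod1 myoblasts over Myf5 cells (0.695%) and for Myog myocytes over Myod1 myoblasts (4.09%). Few of all genes passed 2-fold at these steps, so the count of 0 says little about the members in particular. Dlk1 was at 255 UPM in Pax3/Pax7 progenitors, 141 UPM in Myf5 cells, 158 UPM in Myod1 myoblasts and 139.6 UPM in Myog myocytes at E11.5. Igf2 ranged over 412 to 466 UPM and Peg3 over 1113 to 1219 UPM in the same 4 classes. Plagl1 was lower in Pax3/Pax7 progenitors (204 UPM) than in the 3 later classes (367 to 404 UPM), a difference under 2-fold.

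Between neighbouring muscle steps, the log2 ratios of Dlk1, Meg3, Igf2r, Mest and Plagl1 were largest in size from Myog myocytes to Myh3 myocytes. These are cells with the myogenin transcription factor and cells with embryonic myosin heavy chain. Here 3 of 9 members were higher past 2-fold (10.3% of 9521 genes) and 2 lower (11.7%). These counts were not tested against the shares of all genes. Dlk1 went from 139.6 UPM (130.6 to 149) to 864 UPM (836 to 892) and Meg3 from 566 UPM (548 to 585) to 3338 UPM (3283 to 3393). Their log2 ratios, 2.63 (2.52 to 2.74) and 2.56 (2.51 to 2.61), overlapped, so the neighbours differed by like factors. Igf2r went from 65.3 to 139.7 UPM, a log2 ratio of 1.10 (0.91 to 1.28). Mest was lower, 1327 against 344 UPM with a log2 ratio of -1.95 (-2.03 to -1.87), and so was Plagl1, 384 against 137 UPM with a log2 ratio of -1.49 (-1.62 to -1.36). Igf2, H19, Peg3 and Grb10 stayed within 2-fold, at 619, 1109, 884 and 499 UPM in Myh3 myocytes. Set against Pax3/Pax7 progenitors of the same library, Myh3 myocytes were higher past 2-fold for Dlk1, Meg3 and Igf2r (12.3% of genes) and lower for Mest (17.8%), at log2 ratios of 1.76, 2.30, 1.75 and -2.32.

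Within the Myh3 myocytes the levels were graded with Myh3 itself. In cells with 3 to 9, 10 to 29 and 30 or more Myh3 UMIs (50, 56 and 116 cells), Dlk1 was at 102, 232 and 1328 UPM. Meg3 was at 1125, 2181 and 4449 UPM in the same bins, and was thus already higher in the first bin than in Myog myocytes, whereas Dlk1 was not. Mest went the other way, at 846, 402 and 163 UPM, and Plagl1 was at 190.1, 138 and 119.6 UPM. Igf2r was at 106, 120.4 and 157 UPM with overlapping intervals for neighbouring bins. Igf2, at 384, 480.4 and 743 UPM, and H19, at 807, 936 and 1266 UPM, were both highest in the last bin. Malat1 was at 2809, 3911 and 6861 UPM in these bins, and its part in the differences was not tested.

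**Figure D3:**
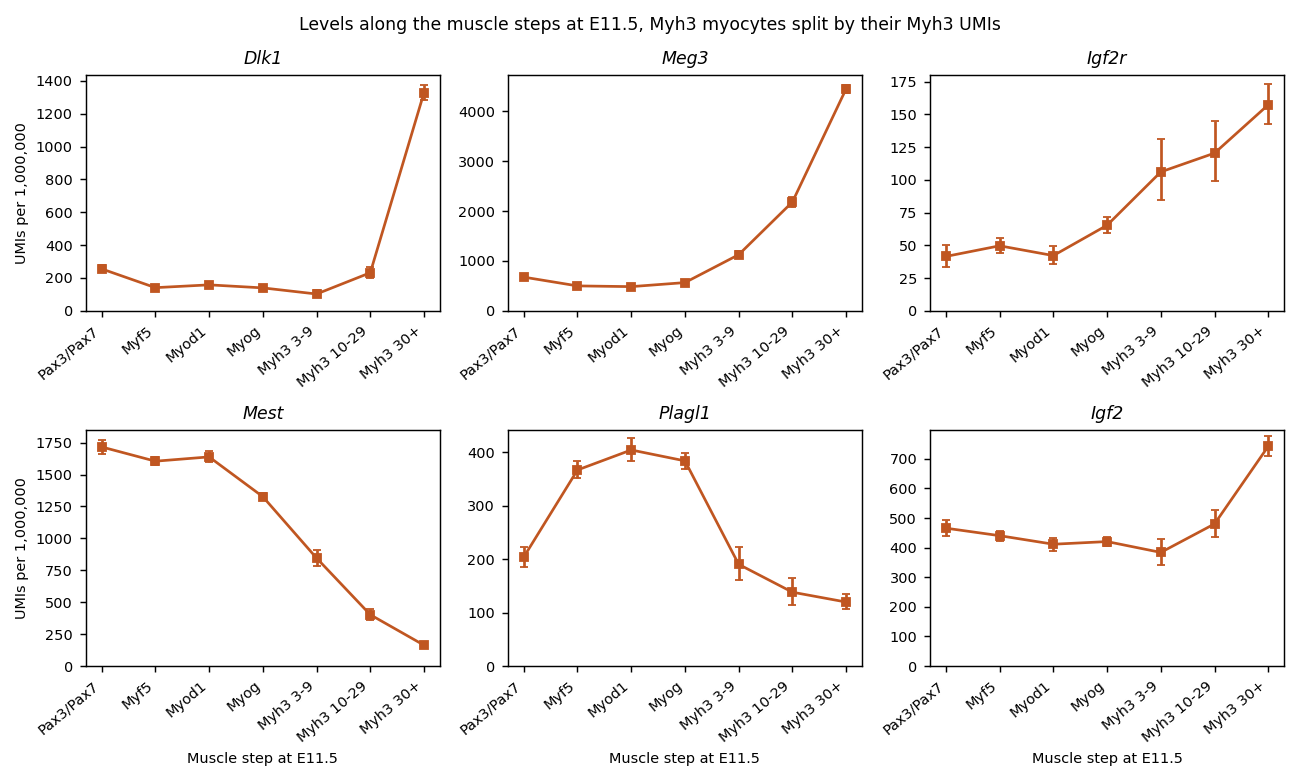
Level of 6 members (UMIs per 1000000, linear axes from 0) along the muscle steps at E11.5, with Myh3 myocytes split by their Myh3 UMIs and exact 95% Poisson intervals as bars. Dlk1 is at 139.6 UPM in Myog myocytes and 1328 UPM in the last Myh3 bin, while Mest is at 1327 and 163 UPM.

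The study concerns the fusion of myocytes, which requires Myomaker (Mymk) and Myomixer (Mymx), listed in the files under the older symbols Tmem8c and Gm7325. Among Myh3 myocytes with a Mymk UMI, 174 cells also held a Mymx UMI and 44 did not. Dlk1 was at 566 UPM (541 to 592) in the former and 2095 UPM (1998 to 2196) in the latter, and Meg3 at 2795 and 5602 UPM. H19, at 989 and 1600 UPM, Igf2, at 532 and 973 UPM, and Igf2r, at 121 and 217 UPM, were also higher in the cells without a Mymx UMI, and Mest was lower, at 397.6 and 114.9 UPM. Among Myog myocytes with a Mymk UMI the order of Meg3 was the opposite, 790.0 UPM in 99 cells with Mymx and 548 UPM in 47 cells without, while Dlk1 was at 95.5 and 167 UPM. These are cells of 1 library split on sparse counts, and Malat1 was at 4376 UPM in Myh3 myocytes with Mymx and 10017 UPM in those without.

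Because Dlk1 and Meg3 were also high in neurons, the myocytes were counted again without any cell holding a UMI of the 6 neuron genes of the gate, an alternative chosen after the values were seen. In the 208 Myog myocytes and 95 Myh3 myocytes that were left, Dlk1 was at 123 and 559 UPM and Meg3 at 581 and 2731 UPM. Both stayed past 2-fold, with log2 ratios of 2.18 and 2.23. Igf2r was no longer past 2-fold, at 0.91, while Mest (-1.71) and Plagl1 were still lower past 2-fold.

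The genes around the pairs differed as well. Downstream of Meg3, Rtl1, a retrotransposon-derived gene of the placenta and muscle, had 5 UMIs in Myog myocytes and 30 in Myh3 myocytes. Its log2 ratio was 3.15 (1.77 to 4.87), on fewer than the 50 UMIs that a call needs. The noncoding RNAs Gm26945, B830012L14Rik and Mirg had log2 ratios of 2.63, 2.01 and 1.69, the last from 24.4 to 78.8 UPM. Around Igf2 and H19, the ratios of the troponin genes Tnnt3 (4.87) and Tnni2 (2.53), which belong to the contractile apparatus, were larger than those of Igf2 (0.56) and H19 (0.33). Mrpl23, of the mitochondrial ribosome, was at 0.52. The annotation places the antisense genes Gm26906 over Meg3 and Igf2os over Igf2, and how reads in the overlaps were assigned was not examined. Igf2os had a log2 ratio of 1.02 (0.53 to 1.52), on 61 UMIs in Myog myocytes and 84 in Myh3 myocytes. Gm26906 had 0 and 11 UMIs.

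Compared with Pax3/Pax7 progenitors of the same library, sclerotome cells differed least. At E9.5 0 of 9 members passed 2-fold (4.33% of genes in either direction), with Plagl1 at a log2 ratio of -0.91 that was -1.22 with stricter gates, and at E11.5 only Plagl1 did, lower at -1.94 (-2.09 to -1.78) where 1.96% of genes were lower. Endothelial cells at E9.5 had 4 members higher (12.2%): H19 at 685 against 329 UPM, Igf2 at 271 against 119 UPM, Mest at 2671 against 1221 UPM and Plagl1 at 163 against 4.53 UPM. Dlk1 was lower there, 24.0 against 193 UPM (8.86% of genes lower), with a log2 ratio of -3.01. At E11.5 Igf2r was higher, 102 against 41.5 UPM (11.2%), and Meg3 and Peg3 were lower, at log2 ratios of -1.33 and -2.07 (9.03%). Dlk1 was at -0.83 and passed 2-fold, at -1.61, with stricter gates. The Igf2r ratio of 1.30 rested on 137 and 98 UMIs and was 0.90 with stricter gates.

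The neural classes were low in most growth genes. In neural progenitors at E9.5, 6 of 9 members were lower past 2-fold than in Pax3/Pax7 progenitors (4.74% of genes), and 1, Plagl1, was higher (7.69%). H19 was at 60.1 against 329 UPM and Igf2 at 23.5 against 119 UPM, log2 ratios of -2.45 and -2.34. At E11.5, 7 of 9 were lower (5.63%), with Plagl1 among them and the largest differences for Igf2 (-3.21) and H19 (-2.59). Plagl1 was not lower in neural progenitors at E11.5 than at E9.5 (83.3 and 50.5 UPM). In Pax3/Pax7 progenitors it was at 204 and 4.53 UPM at these ages. With stricter gates Plagl1 was no longer past 2-fold (-1.29 and -0.85), and Igf2r was (-0.69 and -1.08). Grb10 was level with the muscle progenitors at E9.5: it stood at 308 UPM in neural progenitors and 366 UPM in neurons, against 310.5 UPM in Pax3/Pax7 progenitors. In neurons 6 members were lower at each age (5.37% and 9.84% of genes), and Plagl1 was higher at E9.5 (7.07%). The members were not all the same: Dlk1 and Meg3 were lower only at E9.5, and Plagl1 (-2.85) and Grb10 (-1.51) only at E11.5. At E11.5 the log2 ratio of Dlk1 was 0.10 and that of Meg3 0.93, or 1.17 with stricter gates. At E9.5 that of Meg3 was -1.24, or -0.90 with stricter gates.

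Of the 7 classes described at both ages, Dlk1 and Meg3 had their largest ratios between ages in neurons. Dlk1 was at 25.1 UPM (20.1 to 31.0) in neurons at E9.5 and 275 UPM (260 to 290) at E11.5, and Meg3 at 178 UPM (164 to 193) and 1285 UPM (1253 to 1318), log2 ratios of 3.45 (3.13 to 3.79) and 2.85 (2.73 to 2.97). In all, 4 of 9 members were higher past 2-fold in neurons at E11.5, where 21.8% of genes were higher. The other 2 were H19 (57.0 and 121 UPM) and Igf2 (31.0 and 65.6 UPM), whose ratios of 1.09 and 1.08 were 0.46 and 0.55 with stricter gates. Grb10 was lower, 366 and 184 UPM, at a log2 ratio of -0.99, just under 2-fold. It passed 2-fold with stricter gates (-1.05), in thinned cells (-1.10), as a mean over cells (-1.39) and without the cells of highest doublet score (-1.14). The neuron markers (799.7 and 5054 UPM) and Malat1 (2966 and 10301 UPM) were higher at E11.5 as well, and their part in the ratios was not tested.

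Over neural progenitors of the same library, neurons at E11.5 were higher past 2-fold for Meg3, 1285 against 159 UPM with a log2 ratio of 3.01 (2.86 to 3.16), and for Dlk1, 275 against 85.9 UPM with a log2 ratio of 1.68, where 16.9% of genes were higher. Plagl1 was lower, 28.3 against 83.3 UPM, a log2 ratio of -1.56 (9.01% of genes lower). At E9.5 0 members passed 2-fold (5.69% of genes in either direction), but with stricter gates Igf2 (1.15), Igf2r (1.19) and Plagl1 (-1.40) did. In neurons with an Mnx1 or Isl1 UMI, genes of motor neurons and sensory neurons, Dlk1 and Meg3 were at 327 and 1467 UPM in 138 cells at E11.5, and in the other 283 neurons at 228 and 1120 UPM. Mest was at 86.7 UPM in the cells with Mnx1 or Isl1 and at 419 UPM in the rest. Leaving out neurons with a Myog or Myh3 UMI, Dlk1 was at 25.2 UPM at E9.5 and 270.0 UPM at E11.5, and Meg3 at 178 and 1243 UPM.

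Blood cells were low in the members, apart from H19 in red blood cells at E9.5. Relative to Pax3/Pax7 progenitors, 8 of 9 members were lower past 2-fold in red blood cells at E9.5, where 54.5% of genes were lower, and 9 of 9 at E11.5, where 82.7% were. Haemoglobin took 33.8% and 62.97% of red blood cell UMIs, which lowers every other gene per 1000000. With haemoglobin and mitochondrial UMIs left out of the denominator, Grb10 at E9.5 went from a log2 ratio of -1.40 to -0.79 and was no longer past 2-fold. In white blood cells at E11.5, 9 of 9 were lower (22.2% of genes). Their levels ran from Peg3 at 175.7 UPM and Mest at 168.5 UPM to Igf2r at 9.86 UPM and Plagl1 at 8.07 UPM. Dlk1 was at 53.8 UPM and Igf2 at 58.3 UPM.

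H19 in red blood cells at E9.5 was at 390.4 UPM (361 to 421), above the 329 UPM of Pax3/Pax7 progenitors, and 79.6% of the cells held an H19 UMI after thinning, where Igf2 was seen in 3.88%. The 92 cells with 25 to 50% haemoglobin UMIs, which hold the least of other genes, had 510 UMIs of H19, 157 of Grb10 and 29 of Peg3, but 4 of Dlk1, 4 of Meg3 and 2 of Igf2. In Pax3/Pax7 progenitors of the same library the counts were 3558 for H19 and 1285 for Igf2. H19 and Igf2 were therefore present in quite different ratios in red blood cells and in muscle progenitors. The 20 cells with 10 to 25% haemoglobin UMIs had more of the members usual in somite cells, with Mest at 556 UPM against 8.97 UPM in the 92 cells and Dlk1 at 64.7 against 2.76 UPM. At E11.5, the 118 cells with 50% or more had H19 at 106 UPM (92.7 to 121), Peg3 at 36.3 UPM and Grb10 at 34.0 UPM, and Dlk1 at 2.87 UPM.

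Between ages, 0 of the 7 members tested in red blood cells were higher past 2-fold (3.37% of genes), and H19 and Grb10 were lower (49.8% of genes), with log2 ratios of -1.57 (-1.77 to -1.37) and -1.34 (-1.70 to -0.99). These calls depended on the denominator. With haemoglobin and mitochondrial UMIs left out of it, H19 was at -0.74 and Grb10 at -0.51, and Dlk1 (1.64), Igf2 (1.54) and Peg3 (1.77) were past 2-fold in the other direction. Dlk1 and Igf2 rested on 19 and 20 UMIs at E9.5 and on 44 and 43 at E11.5, of which the 118 cells with 50% or more haemoglobin held 6 and 12.

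**Figure D4:**
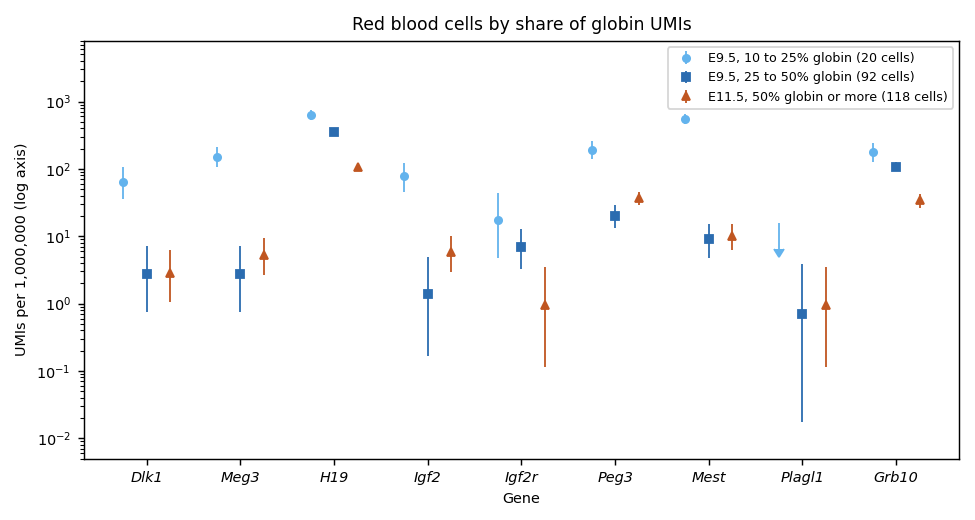
Level of each member (UMIs per 1000000, log axis) in red blood cells grouped by the share of their UMIs from haemoglobin genes, with exact 95% Poisson intervals as lines and a downward arrow at the upper limit where no UMI was found. H19 is at 352 UPM and Igf2 at 1.38 UPM in the E9.5 cells with 25 to 50% haemoglobin, and the few cells under 50% at E11.5 are not drawn.

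The pairs were then followed cell by cell, with each cell thinned to 5000 UMIs. Where a pair was found independently, the number of cells with both transcripts would equal the product of their shares times the cells of the class. Over the 19 classes, the number of cells with both Dlk1 and Meg3 was 0.998 to 12.8 times that value, with an interval above 1 in 6 classes and below 1 in 0. For Igf2 with H19 the ratio was 0.997 to 6.31, with an interval above 1 in 5 classes and below 1 in 0. These intervals were Poisson intervals of the number with both, with the expected number held fixed, and are too wide where transcripts are common. An interval that includes 1 therefore does not show independence. In sclerotome cells at E11.5, 931 cells held both Dlk1 and Meg3 where 873 were expected, a ratio of 1.07 (0.999 to 1.14). Where nearly all cells of a class hold a transcript, the ratio cannot move far from 1, so it says little there about the pair. In Myh3 myocytes 98.6% of cells held Meg3, and in Pax3/Pax7 progenitors at E11.5 94.6% held H19. The parental copy in use was not measured.

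The highest ratios were in classes where the transcripts were rare. In neural progenitors at E9.5, 70 of 2028 cells held both Igf2 and H19 where 14.2 were expected, a ratio of 4.92 (3.84 to 6.22). There 11.3% of cells held H19. The 1902 cells without Igf2 had 0.143 H19 UMIs per cell, and the 38 with 2 to 4 Igf2 UMIs had 2.55. Pax3/Pax7 progenitors with 2 to 4 Igf2 UMIs had 2.01 at that age. No other pairs of genes were counted in this way, so the excess cannot be called particular to Igf2 and H19 or to Dlk1 and Meg3. In neurons at E11.5 Igf2 and H19 were found together in 34 of 349 cells where 8.88 were expected, a ratio of 3.83 (2.65 to 5.35). The 299 of these neurons without an Igf2 UMI had 0.127 H19 UMIs per cell and the 27 with 1 Igf2 UMI had 1.48. Dlk1 and Meg3 were found together in 102 of 2028 neural progenitors at E9.5 where 67.3 were expected, a ratio of 1.52 (1.24 to 1.84), and in 20 of 169 at E11.5 where 10.1 were. In red blood cells at E11.5 the Dlk1-Meg3 ratio of 12.8 rested on 3 cells, and in white blood cells that of 4.92 rested on 5. After the cells of highest doublet score were removed, the interval was above 1 in 5 classes for each pair.

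The amounts of the transcripts in a cell were compared as well, including cells without Dlk1. In sclerotome cells at E11.5, cells with 0, 1, 2 to 4 and 5 or more Dlk1 UMIs had 2.17, 3.19, 4.62 and 7.13 Meg3 UMIs per cell, over 1595 cells. Myh3 myocytes with 0 Dlk1 UMIs had 9.38 Meg3 UMIs per cell and those with 5 or more had 26.9. In Myog myocytes no such gradient was seen, with 3.03, 3.38 and 2.68 Meg3 UMIs per cell at 0, 1 and 2 to 4 Dlk1 UMIs. Spearman correlations over the cells of a class, which share a library and thinned depth, ran from 0.06 in Myog myocytes (322 cells) and in endothelial cells at E9.5 to 0.69 in Myh3 myocytes (215 cells). For Igf2 with H19 they ran from 0.09 in Myod1 myoblasts (185 cells) to 0.65 in white blood cells (65 cells), and sclerotome cells at E11.5 had 3.10 H19 UMIs per cell at 0 Igf2 UMIs and 8.15 at 5 or more.

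**Figure D5:**
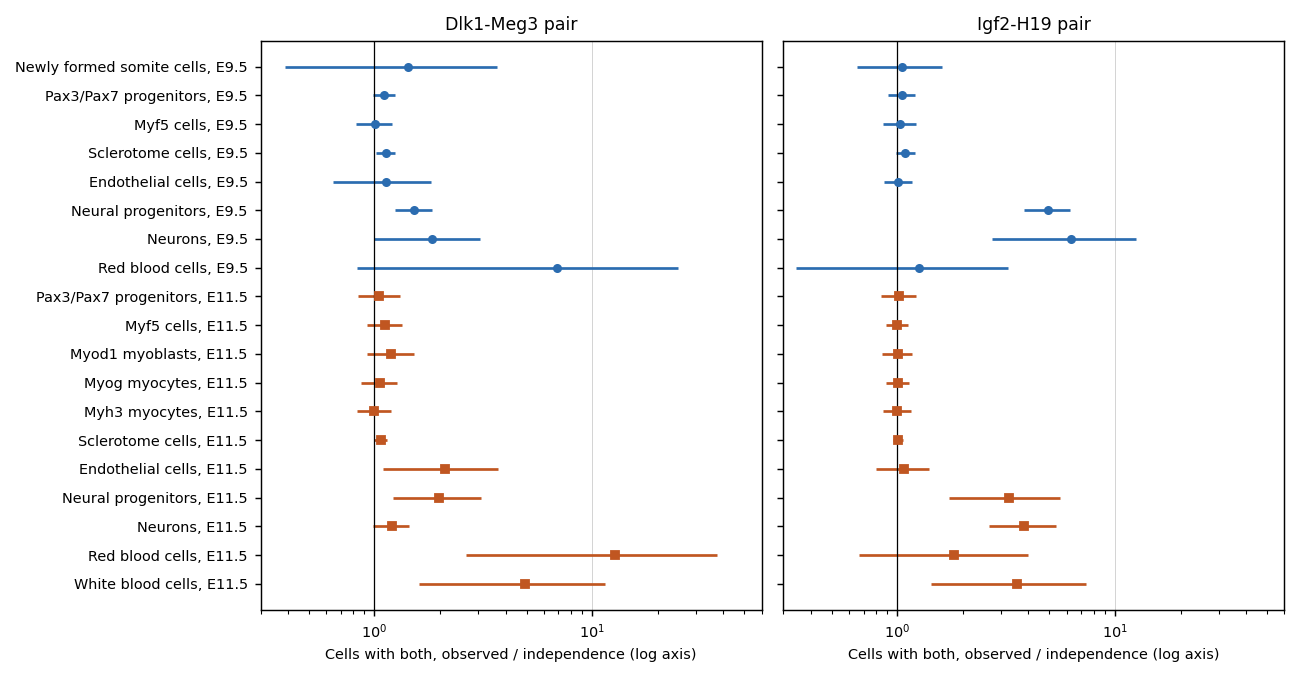
Number of cells with both transcripts of a pair over the number that independence gives (log axis), for Dlk1-Meg3 (left) and Igf2-H19 (right) in each class, with exact 95% intervals as lines and circles for E9.5 and squares for E11.5. Most muscle classes lie near 1 for both pairs, and there most cells hold Meg3 and H19, which limits how far the ratio can move. The neural classes lie at 3.25 to 6.31 for Igf2-H19.

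The members were also set against Mki67 and Top2a, markers of dividing cells, in the cells of the Pax3/Pax7, Myf5 and Myod1 gates. At full depth a UMI of either marker was found in 990 cells at E9.5 and missing from 35, and was found in 553 and missing from 130 at E11.5. After thinning to 5000 UMIs the numbers were 866 and 150, and 445 and 228, so the thinned cells without a marker UMI include cells that had one at full depth. In the thinned cells 0 members passed 2-fold in either direction, where 1.43% and 2.97% of genes were higher and 0.19% and 0.254% lower, and this count says little about division. The log2 ratio of Meg3 at E11.5 was 0.30 in thinned cells and 0.02 at full depth, and that of Grb10 at E9.5 was 0.34 and 0.53.

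Among 37 other imprinted genes, 28 could be tested between ages in Pax3/Pax7 progenitors, and 7 were higher and 2 lower past 2-fold (10.8% and 5.62% of all genes). The higher ones included Cdkn1c (166 and 1941 UPM), Trappc9 (3.05 and 15.3 UPM), Zim1 (4.35 and 21.2 UPM), a neighbour of Peg3, and Nnat (181 and 756 UPM), and the lower ones were Snrpn, of RNA splicing, and Phlda2, a placental growth restrainer. In sclerotome cells the counts were 9 and 3 of 32 (16.4% and 3.94%), in neural progenitors 5 and 3 of 30 (11.8% of all genes higher and 3.7% lower), and in neurons 11 and 2 of 26 (21.8% and 8.51%). From Myog to Myh3 myocytes 8 of 30 were higher (10.3% of all genes) and 1 lower (11.7%). Cobl (log2 ratio 4.26), which acts on actin, Magel2 (2.41), Ndn (1.86) and Ddc (1.72) were the largest, and Nnat (-1.29) was the lower one.

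Of 6 partners of Igf2, its sister ligand Igf1 was higher at E11.5 in Pax3/Pax7 progenitors, 7.40 and 142 UPM with a log2 ratio of 4.26 (3.91 to 4.63), and in sclerotome cells, 4.76 and 307 UPM. The insulin receptor gene Insr had a log2 ratio of 1.09 in Pax3/Pax7 progenitors, and the median over the 6 was 0.45. Of 7 genes that maintain imprints, 6 could be tested there and 1 was higher past 2-fold (10.8% of all genes), Zfp57, a zinc-finger protein that binds methylated imprint control regions, at 10.9 and 45.3 UPM. In Myh3 over Myog myocytes 2 of 6 were lower (11.7% of all genes), the maintenance methylase Dnmt1 (91.3 and 34.4 UPM in Myog and Myh3 myocytes) and its partner Uhrf1 (109 and 33.5 UPM).

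Finally, each member was compared with 8257 genes over the 14 points formed by the 7 classes described at both ages. These points share libraries in groups, and the correlations of log2(UPM + 1) are given as a description. They include red blood cells at both ages, which were low in most genes. There the median log2 ratio over all genes tested against Pax3/Pax7 progenitors was -1.11 at E9.5 and -2.20 at E11.5. The part of these points in the correlations was not tested. Dlk1 was most like Dact3 (Pearson r 0.96), Kif26b (0.96) and Ntm (0.95), and Meg3 most like Vash2, Rbfox2 and Asxl3 (0.96 to 0.97). For Igf2 the nearest were Sh3pxd2a, P3h4 and Fkbp10 (0.96 to 0.97), and for Peg3 Tpm1, Dse and Ccdc80 (0.95 to 0.97). Mest was nearest to Wipf1, Cd302 and Lpp, Igf2r to 4921524J17Rik, Derl1 and Srf, Grb10 to Dcaf8, Xrcc1 and Katna1 (all at 0.97 to 0.98). H19 and Plagl1 had no gene above 0.90, their nearest being Nans (0.88) and Sparc (0.90). Meg3 ranked 33 for Dlk1 (r 0.87) and Dlk1 ranked 584 for Meg3, while Igf2 ranked 12 for H19 (r 0.80) and H19 ranked 279 for Igf2, so neither pair was made of nearest genes.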

How the data were processed

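Single-cell libraries of inter-limb somite cells, 1 per age (E9.5 and E11.5, 3 embryos pooled in each), were analysed from raw UMI counts, a gene by barcode matrix that the authors deposited without normalization. Per the labels, reads were processed with Cell Ranger 3.0.1 against mm10; settings for strand and intronic reads are not given in the sources used here. Medians of 12462 and 12479 UMIs per kept cell set the precision.

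Cells with at least 200 and fewer than 6500 genes and under 15% mitochondrial UMIs were kept. Red blood cells had at least 10% haemoglobin UMIs. White blood, endothelial and neural progenitor cells held at least 2 genes of their lists, neurons at least 3 of 6, and sclerotome cells at least 2 UMIs of Pax1, Pax9 and Nkx3-2. Muscle gates were at least 3 Myh3, 2 Myog, 2 Myod1 or 1 Myf5 UMIs, at least 2 Tbx6-group genes for newly formed somite cells, and at least 2 Pax3 or Pax7 UMIs with a somite gene. Cells with Sox10 were kept out of muscle and sclerotome, and cells in more than 1 of 7 tissue gates out of all classes. Doublets were kept, since Scrublet's automatic threshold marked 6.30% of barcodes at E9.5 but 0.0492% at E11.5. Removing the 5% of barcodes with the highest scores in each library was tried as an alternative.

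UMIs were summed by class. Intervals were exact Poisson (levels, and numbers of cells with both transcripts of a pair), conditional binomial (ratios of levels) and Clopper-Pearson (shares), at 95%. Thinning to 5000 UMIs left out shallower cells. Scripts were tested on simulated data. The named genes were the members, at most the 4 largest changes per direction of each list, and the 3 most similar genes with at least 1000 UMIs. The members and lists were chosen with earlier results of these data known. Splits by Myh3, Mymx, Mnx1 or Isl1, neuron genes and haemoglobin share were chosen after seeing the data. Python 3.11.15, numpy 2.4.6, scipy 1.17.1, pandas 2.3.3 and scanpy 1.11.5 were used. Sequences came from RefSeq (GRCm38.p6).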

Additional observations from a re-analysis of the deposited data

How the results depend on the processing

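The number of members past 2-fold was within 1.5 times its reported value in 28 of 28 comparisons with at least 1000 genes per cell, with haemoglobin and mitochondrial UMIs left out of the denominator and with cells thinned to 5000 UMIs, in 27 of 28 without the cells of highest doublet score, in 26 of 28 with the mean over cells and in 25 of 27 with stricter gates. For sclerotome cells over Pax3/Pax7 progenitors at E9.5 the count went from 0 to 1 under the mean over cells, without the cells of highest doublet score and under stricter gates, each time through Plagl1 (log2 ratios of -1.14, -1.06 and -1.22). For neurons over neural progenitors at E9.5 it went from 0 to 3 under stricter gates (Igf2 1.15, Igf2r 1.19 and Plagl1 -1.40) and to 1 under the mean over cells (Plagl1 -1.23). The cause was not tested. A count can also stay within 1.5 times its value while the members called change. In red blood cells between ages, leaving haemoglobin and mitochondrial UMIs out of the denominator ended the calls of H19 and Grb10. Dlk1, Igf2 and Peg3 then passed 2-fold in the other direction. No ratio past 2-fold changed sign, and of 1524 alternative values of 270 single ratios, 53 fell on the other side of 2-fold, for 31 ratios. In 7 further cases a class had 0 UMIs and gave no ratio, and newly formed somite cells had fewer than 50 cells under stricter gates. The count of classes whose interval for shared cells lay above independence ran from 4 to 8 for Dlk1-Meg3 and from 5 to 7 for Igf2-H19. No paired analysis was possible because each age is 1 library.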
